A study of Mus musculus with 9 samples.

Results

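The taste transduction cascade of thymic tuft cells was followed through 10 genes, chosen by symbol among the 13223 genes of the deposited table: Gnat3, Gnai2, Gnb3, Gnb1, Gng13, Plcb2, Itpr2, Itpr3, Trpm5 and Rgs13. The data are bulk RNA profiles of tuft cells sorted from the thymus of young wild-type (WT) female mice. In 4 libraries the mice had received 425 rad, a sublethal dose, 3 days before the thymus was collected, and in 5 libraries age-matched mice were left untreated. Libraries were made by MARS-seq, which counts the 3' ends of polyadenylated transcripts, so levels of different genes were compared without division by transcript length. Neither the gate of the sort nor how many cells or mice lie behind a library is stated by the labels. Replicates may therefore differ only technically, and a p-value speaks for the spread among these 9 libraries.

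In taste cells and tuft cells, a ligand-bound receptor activates a G protein whose alpha subunit is gustducin (Gnat3) and whose beta and gamma subunits include Gnb3 or Gnb1 and Gng13. The released beta-gamma dimer stimulates phospholipase C beta 2 (Plcb2), which makes inositol trisphosphate (IP3). IP3 opens receptors in the endoplasmic reticulum (Itpr3, Itpr2), and the released calcium opens the cation channel Trpm5. Rgs13 speeds GTP hydrolysis by alpha subunits and so ends signalling, and Gnai2 is a broadly expressed alpha subunit of the Gi class. The cascade is known for coupling luminal signals to the release of effectors such as interleukin 25 and leukotrienes by intestinal tuft cells.

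Totals ran from 509157 to 939948 counts in irradiated and from 686082 to 978442 in untreated libraries, so that a single count added 1.04 to 2.10 CPM, the TMM-scaled unit of all levels given here. The 10 genes took 0.756% to 1.07% of the counts in irradiated and 0.502% to 0.944% in untreated libraries. The sorted cells carried tuft markers: 20 markers outside the cascade, Lrmp among them, summed to between 12581 and 16516 CPM in irradiated and between 7698 and 17535 CPM in untreated libraries. Of the 19 tested, 0 were called at an edgeR adjusted p under 0.05, 14 had a fold change above 0, and their median log2 fold change was 0.20. Some libraries stood apart. Irradiated replicate 4, the smallest library, lay at 75.1 on the first principal component (35% of the variance), against -3.84 to 6.12 for the other irradiated and -31.8 to -7.46 for the untreated libraries. Untreated replicate 2 had the lowest tuft marker sum of the 9 libraries. Its sum of 7 markers of medullary thymic epithelial cells (1 of 6 tested called higher in irradiated libraries) was 1922 CPM, against 543 to 782 CPM in irradiated and 298 to 641 CPM in the other untreated libraries. Untreated replicate 1 had the highest sums of thymocyte and myeloid markers, at 961 and 2262 CPM. The other untreated libraries held 82.2 to 255 and 170 to 1135 CPM. Of the tested markers, 0 of 3 and 1 of 7 were called, the latter lower in irradiated libraries.

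All 10 genes were expressed in every library of both groups. At an adjusted p under 0.05, 0 of the 10 were called different between irradiated and untreated tuft cells, against 1.34% of the 8934 genes tested, by edgeR's quasi-likelihood test with Benjamini-Hochberg adjustment over all tested genes. Of the 10, 0 were higher and 0 lower in irradiated libraries, against 1.22% and 0.123% of all tested genes. Unadjusted p was under 0.05 for 0 of the 10 with edgeR, against 10.6% of all tested genes. It was under 0.05 for 1 (Itpr3) with the DESeq2 Wald test and with limma-voom with quality weights. For these tests the unadjusted share over all genes is not given. After adjustment they called 0 of the 10, against 2.16% and 2.05% of all genes they tested. The fold change was above 0 for 7 and below 0 for 3, with a median log2 value of 0.19, against -0.024 over all tested genes. That median was 0.056 without untreated replicate 2 and 0.064 without irradiated replicate 3, and 0.098 with limma-voom. Fold changes were above 0 for 5 of the 10 without irradiated replicate 3 and for 9 without irradiated replicate 4. The irradiated and untreated libraries overlapped for each of the 10. Groups without overlap were found for 5.14% of all tested genes, so 0 of 10 is near that share and does not mark the cascade out. In bulk samples, fewer cells of a type and less RNA per cell cannot be told apart. In the authors' deposited table, 0 of the 10 passed, and the smallest adjusted p was 0.419, for Itpr3.

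**Figure D1:**
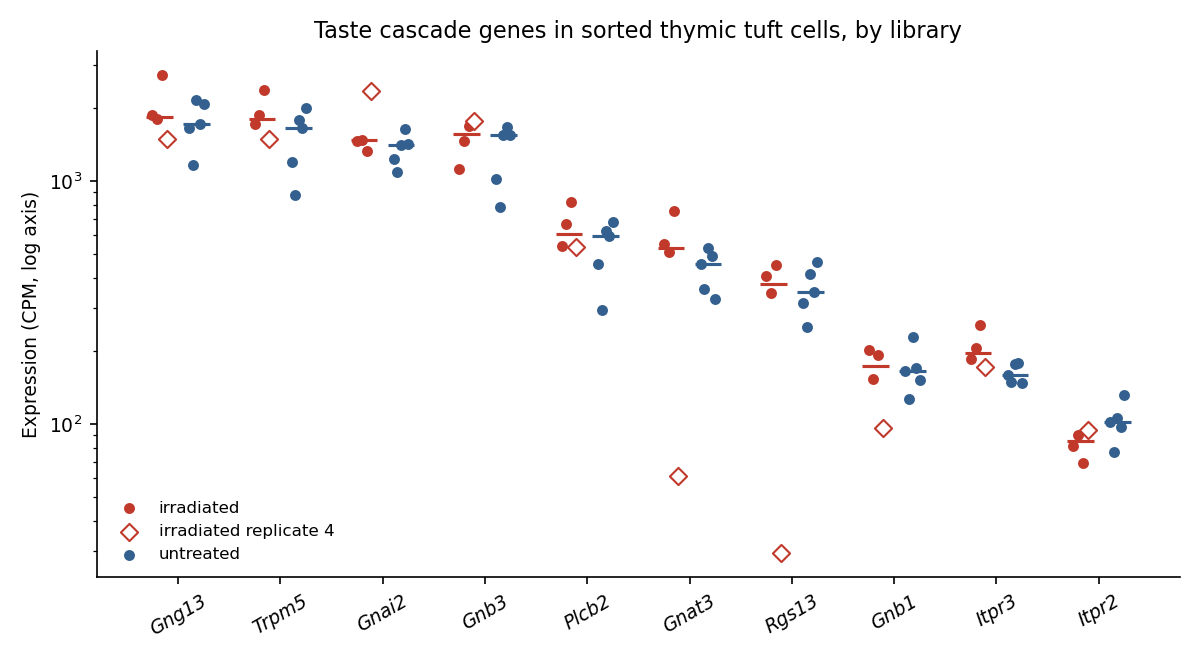
Level of each cascade gene in TMM-scaled CPM on a log axis, with irradiated libraries (n = 4) left of untreated libraries (n = 5). Points are libraries, and the 2 groups overlap for every gene; irradiated replicate 4 lies far below the others for Rgs13 (29.5 CPM) and Gnat3 (61.0 CPM).

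The cascade genes fell into a high, a middle and a low range, which were drawn after their values were seen. Gng13, Trpm5, Gnai2 and Gnb3 held 1123 to 2742 CPM in irradiated replicates 1 to 3, 1490 to 2353 CPM in irradiated replicate 4 and 782 to 2151 CPM in untreated libraries. Plcb2, Gnat3 and Rgs13 held 346 to 817, 29.5 to 537 and 252 to 677 CPM in the same order of libraries. Gnb1, Itpr3 and Itpr2 held 69.4 to 255, 94.7 to 173 and 77.0 to 229 CPM. Within the ranges, Rgs13 was below Plcb2 and Itpr2 below both Gnb1 and Itpr3 in all 9 libraries, and every other pair of genes changed order between libraries. Trpm5, Gnb3 and Gng13 were more abundant than either IP3 receptor in every library.

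Among the alpha subunits, Gnat3, which defines the taste G protein, had 549, 511, 755 and 61.0 CPM in irradiated replicates 1 to 4, against 454, 360, 533, 491 and 328 CPM in untreated replicates 1 to 5. The first 3 irradiated values lay inside or above the untreated range and the value of replicate 4 lay below all others. The means were 469 ± 292 CPM in irradiated (SD, n = 4) and 433 ± 86.8 CPM in untreated libraries (SD, n = 5). The log2 fold change was 0.12 ± 0.51 (SE), with a 95% interval of -1.02 to 1.27 (edgeR adjusted p = 0.954). Without irradiated replicate 4 it was 0.48 ± 0.20, with an unadjusted p of 0.0287 and an edgeR adjusted p of 0.385. Gnai2 had 1467, 1476, 1331 and 2353 CPM in irradiated libraries, against 1232, 1092, 1411, 1632 and 1423 CPM in untreated libraries. Only irradiated replicate 4 exceeded the untreated range. Its log2 fold change was 0.29 ± 0.22 (edgeR adjusted p = 0.723), and 0.071 ± 0.18 without irradiated replicate 4. Gnat3 was the less abundant of the pair in every library, with 0.374, 0.346, 0.567 and 0.0259 counts per Gnai2 count in irradiated and 0.369, 0.330, 0.378, 0.301 and 0.230 in untreated libraries.

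Of the beta subunits, Gnb3, the one enriched in taste cells, had 1123, 1460, 1682 and 1770 CPM in irradiated libraries, against 1018, 782, 1543, 1669 and 1550 CPM in untreated libraries. The widely expressed Gnb1 had 201, 153, 193 and 96.8 CPM in irradiated libraries, against 165, 127, 229, 170 and 152 CPM in untreated libraries. For both genes the groups overlapped, and the log2 fold changes were 0.20 ± 0.25 for Gnb3 (edgeR adjusted p = 0.846; 0.054 without untreated replicate 2) and -0.062 ± 0.23 for Gnb1 (edgeR adjusted p = 0.949). The gamma subunit Gng13 had 1876, 1795, 2742 and 1490 CPM in irradiated libraries, against 1648, 1163, 2151, 1727 and 2085 CPM in untreated libraries. Its log2 fold change was 0.17 ± 0.24, with an interval of -0.34 to 0.68 (edgeR adjusted p = 0.865). Gng13 reads may include the opposite-strand gene Chtf18, whose exons overlap it, since the strand setting of the counting is not stated.

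The effector Plcb2 had 539.9, 668, 817 and 537 CPM in irradiated libraries, against 457, 296, 622, 596 and 677 CPM in untreated libraries. The lowest value was that of untreated replicate 2. The means were 640 ± 133 CPM in irradiated and 530 ± 154 CPM in untreated libraries (SD, n = 4 and 5), with a log2 fold change of 0.28 ± 0.24 and an interval of -0.24 to 0.79 (edgeR adjusted p = 0.773). Without untreated replicate 2 the log2 fold change was 0.12.

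The IP3 receptors had fold changes of opposite sign, neither past the threshold. Itpr3, the receptor that carries taste signalling, had 186, 206, 255 and 173 CPM in irradiated libraries, against 159, 150, 178, 179 and 148 CPM in untreated libraries. Irradiated replicates 1 to 3 lay above the untreated range and irradiated replicate 4 inside it. The means were 205 ± 36.3 CPM in irradiated and 163 ± 14.9 CPM in untreated libraries, with a log2 fold change of 0.34 ± 0.17 and an interval of -0.021 to 0.70 (edgeR unadjusted p = 0.0629, adjusted p = 0.509). Without irradiated replicate 4 it was 0.41 ± 0.15 (edgeR unadjusted p = 0.0190, adjusted p = 0.338), and without irradiated replicate 3 it was 0.22. Itpr2 had 81.1, 90.2, 69.4 and 94.7 CPM in irradiated libraries, against 103, 77.0, 106, 97.3 and 132 CPM in untreated libraries. The groups overlapped, with a log2 fold change of -0.30 ± 0.20 (edgeR adjusted p = 0.651). Itpr3 overlaps Mir7677 on its own strand and Itpr3os on the other.

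Trpm5, the channel at the end of the cascade, had 1715, 1877, 2371 and 1496 CPM in irradiated libraries, against 1198, 876, 1782, 1652 and 2009 CPM in untreated libraries. The highest value was irradiated and the lowest untreated, with the rest interleaved. Its log2 fold change had an interval of -0.23 to 0.85 (edgeR adjusted p = 0.743), and without untreated replicate 2 its value was 0.16, against 0.31 with all libraries. Trpm5 overlaps exons of Tssc4 on the opposite strand. Rgs13, the regulator, had 406, 346, 454 and 29.5 CPM in irradiated libraries, against 316, 252, 414, 350 and 464 CPM in untreated libraries. Irradiated replicate 4 lay below all other libraries, and the remaining 8 overlapped. The log2 fold change was -0.21 ± 0.55, with an interval of -1.45 to 1.04 (edgeR adjusted p = 0.934), and 0.16 ± 0.20 without irradiated replicate 4.

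**Figure D2:**
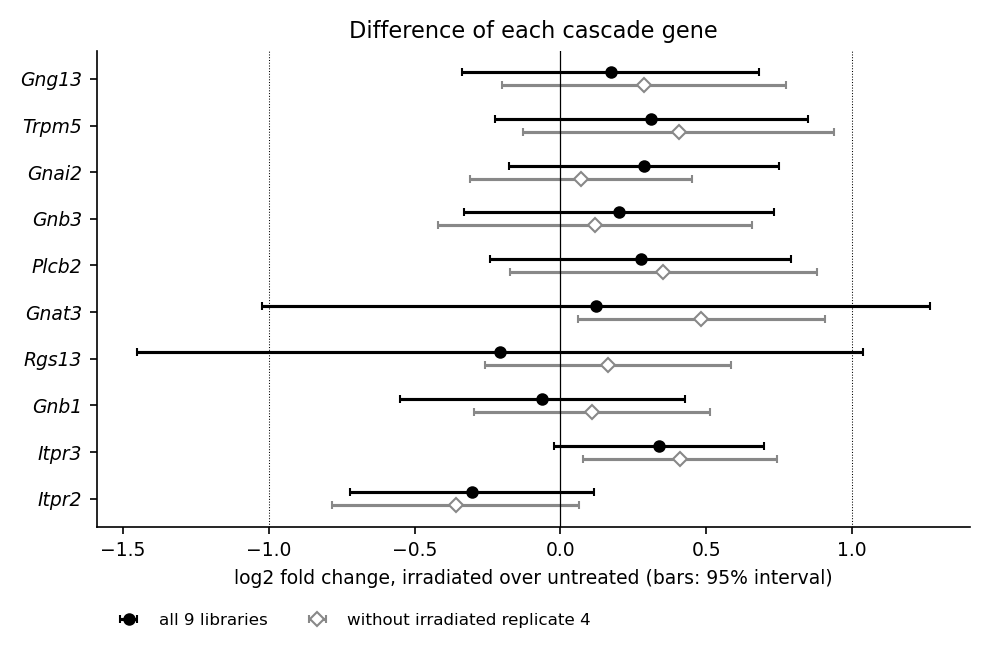
Log2 fold change of irradiated over untreated for each cascade gene, with its 95% interval from edgeR. The interval lies within -1 to 1 for 8 of the 10 genes and passes that bound for Gnat3 and Rgs13; with all 9 libraries every interval includes 0.

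The intervals show how large a change these libraries could have missed. For 8 of the 10 genes the interval lay within a log2 fold change of -1 to 1, and for Gnat3 and Rgs13 it did not. Without irradiated replicate 4, all 10 intervals lay within those bounds. Those of Gnat3 (0.058 to 0.91) and Itpr3 (0.079 to 0.74) then lay above 0, and 0 of the 10 passed the adjusted threshold.

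Ratios between paralogs do not depend on library scaling, but the paralogs differ in transcript GC content and the ratios were not corrected for it. GC was 57.5% for Itpr3 and 49.6% for Itpr2, 56.9% for Gnb3 and 48.1% for Gnb1, and 41.2% for Gnat3 and 56.7% for Gnai2. With each library corrected for GC, a step chosen after the data were seen, the log2 fold change was 0.24 for Itpr3 and -0.22 for Itpr2. Uncorrected, it was 0.34 and -0.30. The log2 ratio of Itpr3 to Itpr2 was 1.28 ± 0.43 in irradiated and 0.67 ± 0.31 in untreated libraries (SD, n = 4 and 5). The ratios were 2.29, 2.29, 3.68 and 1.82 in irradiated libraries, against 1.55, 1.94, 1.67, 1.84 and 1.12 in untreated libraries, so 3 of 4 irradiated libraries lay above all untreated ones. The difference of 0.61 had an exact two-sided permutation p of 0.0476, and 0.143 after Benjamini-Hochberg adjustment over the 3 ratios, so it did not pass. The log2 ratio of Gnb3 to Gnb1 was 3.26 ± 0.70 in irradiated and 2.92 ± 0.37 in untreated libraries (exact permutation p = 0.444, adjusted 0.667). For Gnat3 to Gnai2 it was -2.25 ± 2.02 in irradiated and -1.66 ± 0.29 in untreated libraries (exact permutation p = 0.825, adjusted 0.825). The smallest one-sided p that these groups allow is 0.00794, and the two-sided p used here cannot be as small.

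Irradiated replicate 4 separated the cascade genes from each other. Against the mean of irradiated replicates 1 to 3, it held 13.6-fold less Rgs13 and 9.91-fold less Gnat3, ranks 13 and 28 from the lowest among the 4100 genes averaging 50 CPM or more. Trpm5, Plcb2, Itpr3 and Gng13 were at 0.697 to 0.800 times that mean, Gnb3 at 1.24 times and Itpr2 at 1.18 times. Gnai2 was at 1.65 times, and Gnb1 was 1.88-fold lower. Tuft markers outside the cascade were also split in this library, so the split is not particular to the cascade. Dclk1 was at 29.5 CPM, against 147 to 222 CPM in irradiated replicates 1 to 3. Chat was higher, at 112 against 39.0 to 50.4 CPM, and Avil, at 2742 CPM, lay inside 2353 to 3083 CPM. The low values rest on 14 counts of Rgs13 and 29 of Gnat3 in a library of 509157, a share of 0.00275% (95% Clopper-Pearson interval 0.00150% to 0.00461%) and of 0.00570% (0.00382% to 0.00818%). The other irradiated libraries had shares of 0.0355% to 0.0454% and 0.0525% to 0.0756%. If each count is a separate molecule, which is not stated, the difference exceeds counting error, and these intervals cover nothing else.

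**Figure D3:**
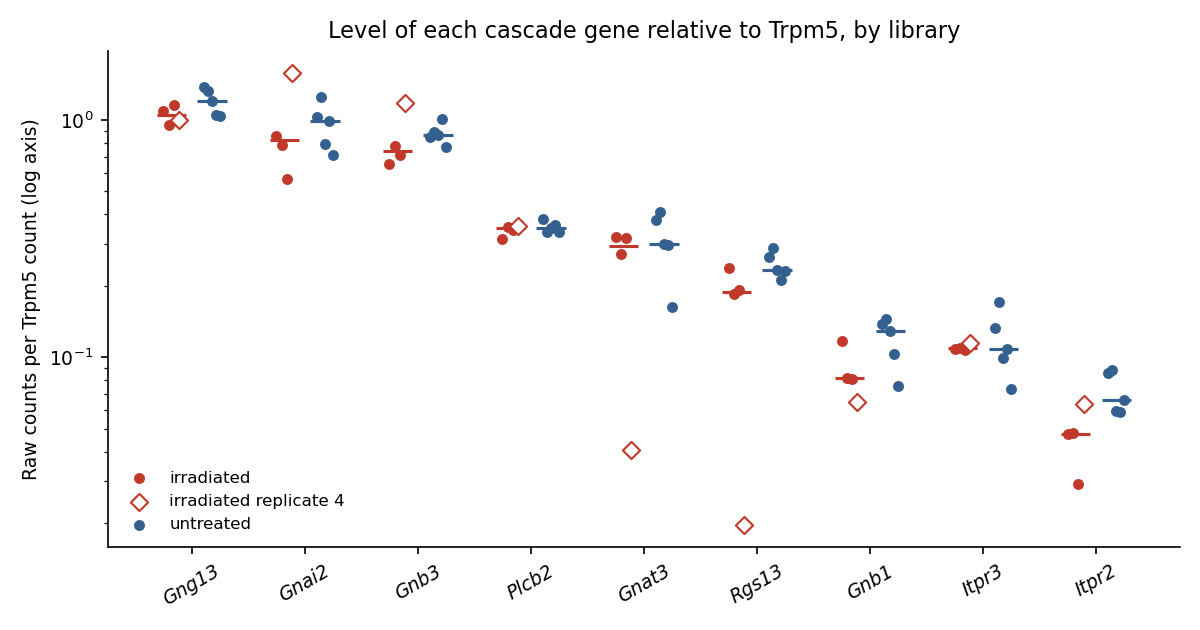
Raw counts of each cascade gene per Trpm5 count on a log axis, with irradiated libraries (n = 4) left of untreated libraries (n = 5), bars at the median and a diamond for irradiated replicate 4. Plcb2 stays between 0.315 and 0.382 in all 9 libraries, whereas in irradiated replicate 4 Gnat3 is at 0.0408 and Rgs13 at 0.0197.

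The cascade genes lowest in irradiated replicate 4, Rgs13 and Gnat3, also had the lowest transcript GC content of the cascade. In the longest coding transcript of GENCODE, Rgs13 had 34.4% GC, the lowest of 4021 genes at or above 50 CPM with a transcript, and Gnat3 had 41.2%, below which lay 3.46% of those genes. The median was 53.0%. Gnb1 had 48.1% and the other 7 cascade genes 49.6% to 58.7%. Those 7 showed no steady rise with GC in the log2 value of irradiated replicate 4 over the other irradiated libraries. By rising GC, the values were 0.24 (Itpr2), -0.33 (Plcb2), -0.41 (Trpm5) and 0.72 (Gnai2). They were then 0.32 (Gnb3), -0.32 (Itpr3) and -0.52 (Gng13). In irradiated replicate 4, the median log2 value over the other irradiated libraries was -1.16 for 73 genes under 40% GC, -0.66 for 459 genes from 40% to 45%, -0.29 for 807 genes from 45% to 50% and 0.045 for 1174 genes from 50% to 55%. It was 0.31 for 1213 genes from 55% to 60% and 0.36 for 295 genes above. Rgs13 and Gnat3 lay well under the median of their intervals: of the 73 genes, 2 were as low as Rgs13 or lower, Rgs13 included, and of the 459, 13 (2.83%) were as low as Gnat3, Gnat3 included. No gene of the first interval had a lower GC than Rgs13, and Gnat3 lay in the lower part of 40% to 45%. Genes of equal GC were therefore not compared. Across genes, which are not independent replicates, a library's deviation from the other libraries of its group had a Spearman correlation with GC of 0.44 in irradiated replicate 4, -0.35 to -0.27 in the other irradiated libraries, which were compared with a group that includes replicate 4, and -0.18 to 0.13 in the untreated libraries. With the GC of the transcript's 3' end alone, where reads lie, these correlations were 0.32, -0.27 to -0.19 and -0.15 to 0.11. After a correction of each library for GC, chosen after the data were seen, the mean of the other irradiated libraries was still 5.00 times that of irradiated replicate 4 for Rgs13 and 5.44 times for Gnat3. The remaining difference was not tested further. Summed endothelial markers (7 genes, 0 called) were 2035 CPM in irradiated replicate 4, against 639 to 1404 CPM in the other irradiated and 699 to 1611 CPM in untreated libraries, and their part in the high Gnai2 value was not tested.

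**Figure D4:**
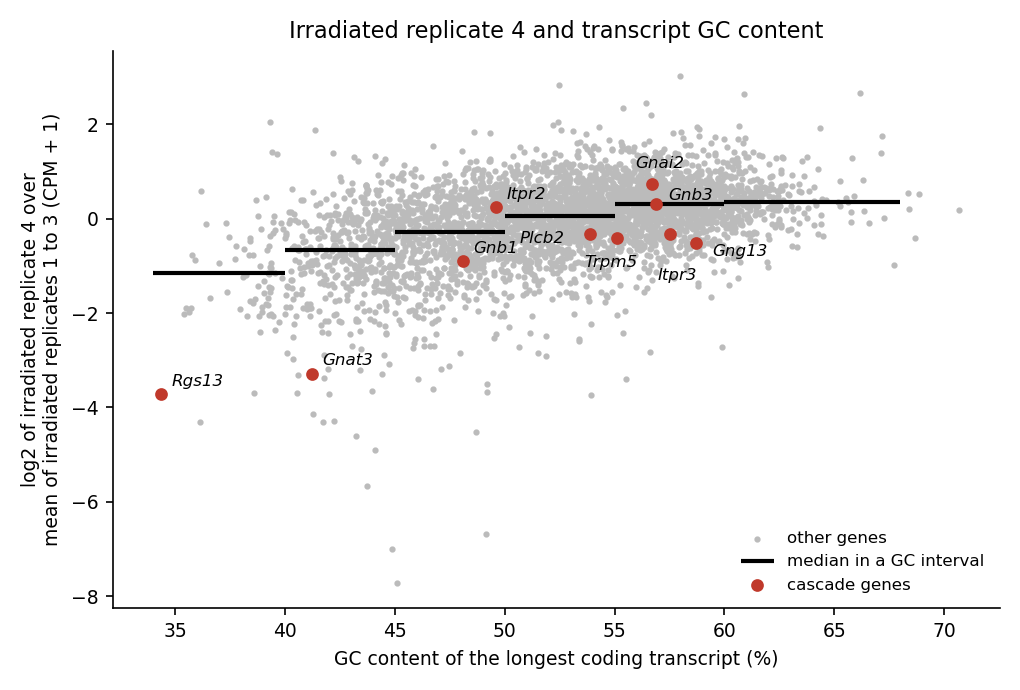
Each point is a gene, with transcript GC content in percent on the x axis and the log2 value of irradiated replicate 4 over the mean of irradiated replicates 1 to 3 on the y axis; red points are the cascade genes and black bars the median of a GC interval. Genes of low GC content lie lower in this library, and Rgs13 and Gnat3 lie lowest of the cascade genes.

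The cascade genes followed Trpm5 across libraries to different degrees. As a description over 9 libraries that share scaling and depth, the Pearson correlation with Trpm5 after taking off group means was 0.98 for Plcb2, 0.92 for Gng13, 0.78 for Gnb3 and 0.57 or less for the other 6 genes. Without irradiated replicate 4 it was 0.98 for Plcb2, 0.95 for Gnb3, 0.93 for Rgs13 and 0.91 for Gng13, and 0.31 for Gnat3, the lowest. Over all 9 libraries Plcb2 kept the narrowest proportion to Trpm5, with 0.315 to 0.359 counts per Trpm5 count in irradiated and 0.337 to 0.382 in untreated libraries. Gng13, Gnb3 and Itpr3 varied more over the 9 libraries, with 0.956 to 1.16, 0.655 to 1.18 and 0.108 to 0.115 in irradiated libraries and 1.04 to 1.38, 0.772 to 1.01 and 0.0736 to 0.171 in untreated libraries. Among the irradiated libraries alone, Itpr3 had the narrower range. For 8 of the 10 genes (not Gnat3 and Itpr3), untreated replicate 2 held the lowest untreated value, and it is the library with the lowest tuft and the highest medullary marker sum, whose part in these values was not tested. By correlation with Trpm5 over the same 9 libraries, the nearest of 4090 genes outside the cascade were the chemokine-scavenging receptor Ackr4 (0.98), the adhesion molecule L1cam (0.98), Ilrun (0.97), angiotensinogen (Agt, 0.97), Txndc16 (0.96), Tmem50b (0.96), Gm4952 (0.96) and 2510002D24Rik (0.95).

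Sequence upstream of the gene is shown for the members that held together (Trpm5, Plcb2), those that left the others in irradiated replicate 4 (Rgs13, Gnat3) and the gene with the smallest p (Itpr3). Each is the 250 bases before the annotated start, 5′ to 3′ on the gene's strand, from RefSeq on GRCm38.p6 (mm10). They lie at chr1:144177373-144177622 (minus strand, Rgs13), chr5:17962320-17962569 (plus, Gnat3), chr7:143094643-143094892 (minus, Trpm5), chr2:118728439-118728688 (minus, Plcb2) and chr17:27057054-27057303 (plus, Itpr3). The genes themselves span chr1:144138654-144177372 (Rgs13), chr5:17962549-18019834 (Gnat3), chr7:143069153-143094642 (Trpm5), chr2:118707517-118728438 (Plcb2) and chr17:27057304-27122223 (Itpr3) in GENCODE on mm10. The GENCODE start of Gnat3 lies upstream of that in RefSeq and inside the window shown, so the last bases of that window belong to the GENCODE gene. Capitals mark an octamer (ATGCAAAT) or a CCAAT box on either strand, both read as letters with no evidence of binding.
Rgs13: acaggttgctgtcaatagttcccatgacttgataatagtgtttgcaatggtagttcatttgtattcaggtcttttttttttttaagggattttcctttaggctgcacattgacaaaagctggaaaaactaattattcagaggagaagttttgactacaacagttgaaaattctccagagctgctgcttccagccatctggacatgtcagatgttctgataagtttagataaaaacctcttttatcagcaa
Gnat3: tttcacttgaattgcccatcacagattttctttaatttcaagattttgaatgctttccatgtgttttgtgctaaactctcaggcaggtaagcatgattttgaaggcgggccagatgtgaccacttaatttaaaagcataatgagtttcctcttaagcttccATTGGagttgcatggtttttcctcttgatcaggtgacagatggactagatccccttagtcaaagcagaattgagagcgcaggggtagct
Trpm5: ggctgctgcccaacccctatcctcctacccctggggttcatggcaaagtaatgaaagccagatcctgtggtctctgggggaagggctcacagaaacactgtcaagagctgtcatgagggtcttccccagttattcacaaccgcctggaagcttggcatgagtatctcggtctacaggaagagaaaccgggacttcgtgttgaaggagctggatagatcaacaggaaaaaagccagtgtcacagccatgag
Plcb2: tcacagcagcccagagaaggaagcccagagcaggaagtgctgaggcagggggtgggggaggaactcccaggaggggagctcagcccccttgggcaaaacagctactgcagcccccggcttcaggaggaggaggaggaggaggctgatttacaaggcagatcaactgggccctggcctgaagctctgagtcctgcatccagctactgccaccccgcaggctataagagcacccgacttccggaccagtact
Itpr3: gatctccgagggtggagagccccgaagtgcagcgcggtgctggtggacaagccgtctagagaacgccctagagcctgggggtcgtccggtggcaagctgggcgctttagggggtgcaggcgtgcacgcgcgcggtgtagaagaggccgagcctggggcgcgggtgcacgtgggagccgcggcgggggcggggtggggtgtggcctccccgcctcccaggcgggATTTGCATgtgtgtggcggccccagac
The octamer, the letters recognised by POU factors such as Pou2f3 in the tuft lineage, was found in the Itpr3 window on the reverse strand and in 1.60% of all 32851 promoters of this length. It was in no window of the other 7 cascade genes with an entry, from which nothing follows about the factor. CCAAT was in the windows of Gnat3 and Itpr2 and in 33.9% of all promoters. The AP-1 letters TGAGTCA were in none of the 9 windows and in 4.46% of all promoters, and GGGCGG was in those of Gnb1, Itpr2, Gng13 and Itpr3 and in 32.7% of all. The GC content of the window was 36% for Rgs13 and 40.8% for Gnat3, against 52.8% for Trpm5 and 72% for Itpr3, with a median of 52.4% over all promoters.

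Genes around the cascade were read from lists of pathway genes. Of 13 tested G protein subunits outside the cascade, 0 rose and 0 fell, with a median log2 fold change of -0.059. The stimulatory alpha subunit Gnas was at 1403 ± 520 CPM in irradiated and 1273 ± 191 CPM in untreated libraries, and the beta subunit Gnb2 at 871 ± 157 and 695 ± 131 CPM (SD, n = 4 and 5). Of 8 tested genes of phospholipase C and IP3 handling, 1 rose and 0 fell, with a median of 0.50. The gene that rose was Itpkc, a kinase that phosphorylates IP3 and so removes the ligand of Itpr2 and Itpr3. It had 159, 215, 152 and 149 CPM in irradiated libraries, against 55.5, 44.4, 58.0, 68.4 and 100.4 CPM in untreated libraries. All irradiated values lay above all untreated ones. The log2 fold change was 1.37 ± 0.23 (edgeR adjusted p = 0.00655), and every one of the 18 alternatives called it, with log2 values of 1.24 to 1.57 and adjusted p up to 0.0349. Itpkc lies at chr7:27207172-27228661 (minus strand, mm10) and overlaps exons of BC024978 on the opposite strand.

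Markers of other cells moved with the groups beside this gene. Summed markers of mesothelium were 1031 to 2089 CPM in irradiated and 383 to 865 CPM in untreated libraries (8 genes, 6 of 7 tested called higher, 0 markers at 0 in all libraries). Summed fibroblast markers were 2831 to 4126 CPM in irradiated and 351 to 2253 CPM in untreated libraries (9 genes, 0 called, 0 at 0 in all libraries). Summed thymocyte markers were 25.9 to 50.4 CPM in irradiated and 82.2 to 961 CPM in untreated libraries (11 of 12 listed genes in the table, 0 of 3 tested called). Their part in the value of Itpkc was not tested. Lrmp, an IP3 receptor-associated tuft cell gene, was at 3155 ± 560 CPM in irradiated and 2224 ± 619 CPM in untreated libraries (log2 fold change 0.50 ± 0.24, edgeR adjusted p = 0.483).

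None of the other pathway lists held a called gene. Of 12 tested RGS genes, 0 rose and 0 fell, with a median of -0.25. Rgs5, a regulator of Gi and Gq signalling known from pericytes, was at 139 ± 56.0 CPM in irradiated and 298 ± 158 CPM in untreated libraries (log2 fold change -1.10 ± 0.40, edgeR adjusted p = 0.327). Of 16 tested genes of calcium handling and channels, 0 passed, with a median of 0.062. The calcium pumps Atp2a2 and Atp2a3, which refill the endoplasmic reticulum, had log2 fold changes of 0.46 ± 0.19 and 0.37 ± 0.21 (edgeR adjusted p = 0.392 and 0.609). Of 13 tested genes of the cyclic AMP arm, 0 passed, with a median of -0.029. The phosphodiesterase Pde1b was at 6.73 ± 3.85 CPM in irradiated and 18.7 ± 6.10 CPM in untreated libraries, on 2 to 12 and 7 to 22 raw counts (log2 fold change -1.37 ± 0.43, edgeR adjusted p = 0.189). Of 3 tested receptors, 0 passed, and the taste receptor subunits Tas1r1 and Tas1r3 had 62.5 ± 14.8 and 66.6 ± 16.8 CPM in irradiated and 50.7 ± 14.05 and 56.0 ± 22.9 CPM in untreated libraries.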

How the data were processed

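Tuft cells sorted from mouse thymus were profiled by bulk MARS-seq in 4 irradiated and 5 untreated libraries. Per the submitters' processing notes, bcl2fastq, cutadapt, STAR 2.5.2b, HTSeq, DESeq2 and mm10 were used, with no role given; the collapsing of molecular identifiers is not mentioned, and a count may be a read or a molecule. The authors deposited 1 table of 13223 genes, each reaching 6 counts in some library. Per the file headers, counts stand in the raw columns; the deposited normalized signal is the count divided by a size factor per library, and the deposited log2 values (regularized, and the authors' fold change of untreated over irradiated) and p-values belong to the authors' own analysis. 0 columns belonged to other series.

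The count test was that of edgeR 4.0.16 in R 4.3.3 (TMM, minimum count 10, robust quasi-likelihood test, adjusted p under 0.05 over 8934 genes; SE is the log2 fold change divided by the square root of F). Ratios of paralogs were compared by exact permutation over 126 splits, on counts plus 0.5. The fitting steps were tested on simulated data. The cascade genes and pathway lists were chosen with earlier results of these data known. Named genes are the 10 cascade genes, and of each pathway list those called, the 3 with the smallest p and the 3 most abundant, and the 8 most like Trpm5. Alternatives were DESeq2 scaling, upper-quartile scaling, no filter, DESeq2 1.42.0, limma-voom 3.58.1, a replicate block and leaving out each library. Every limma-voom fit used quality weights, so its libraries did not count equally. Chosen after seeing the data were a fit of replicates 1 to 4 with no block, leaving out untreated replicate 2 with irradiated replicate 4, and a GC correction. Promoters came from RefSeq for 8 of the 10 genes, and gene positions and transcript GC from GENCODE vM21.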

Additional observations from a re-analysis of the deposited data

Results flagged for a closer look

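Of 78 groups of values examined, 7 held a library far from the others of its group, where chance flags about 5%. Gnai2 was at 2353 CPM in irradiated replicate 4, while its other 3 irradiated values were 1331 to 1476 CPM. Gnas was at 2174 CPM in irradiated replicate 4, against 1049 to 1237 CPM. Gnb2 was at 1105 CPM there, against 778 to 820 CPM. The log2 ratio of Gnat3 to Gnai2 was -5.24 in irradiated replicate 4, against -1.53 to -0.82 in the other irradiated libraries. Itpkc was at 215 CPM in irradiated replicate 2, against 149 to 159 CPM, all above the untreated libraries. Pde1b was at 12.4 CPM in irradiated replicate 2, against 4.21 to 5.60 CPM. Rgs10 was at 43.7 CPM in irradiated replicate 1, against 21.0 to 22.8 CPM. Of these, 4 fell in irradiated replicate 4. The low CPM values of Rgs13 and Gnat3 in that library did not reach the rule, though they lay below all other libraries.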

How the results depend on the processing

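Of the 10 cascade genes, 0 were called under any of 18 alternatives, 9 of which left out 1 library. Of all tested genes, these alternatives called 0.557% to 2.16%. The smallest adjusted p of a cascade gene was 0.316 (limma-voom with quality weights, Itpr3). Over all genes, the main count of 109 higher and 11 lower ranged over 50 to 114 higher and 2 to 12 lower when 1 library was left out. It was 184 higher and 100 lower with the DESeq2 Wald test, 28 lower with limma-voom, 22 lower with the replicate block and 147 higher and 17 lower without untreated replicate 2 and irradiated replicate 4. The fold change of 5 cascade genes kept its direction throughout. Leaving out 1 library gave log2 ranges of -0.20 to 0.48 for Gnat3, -0.018 to 0.29 for Gng13, -0.44 to 0.16 for Rgs13, -0.17 to 0.11 for Gnb1, -0.15 to 0.27 for Gnas, -0.29 to 0.065 for Plcg2, -0.17 to 0.19 for Rgs9 and -0.16 to 0.024 for Prkar1a; the cause was not tested. For the cascade genes that kept their direction the ranges were 0.16 to 0.43 for Trpm5, 0.12 to 0.37 for Plcb2, 0.071 to 0.39 for Gnai2, 0.22 to 0.41 for Itpr3 and -0.40 to -0.20 for Itpr2. Differences in the log2 ratios ranged over -1.07 to 0.40 for Gnat3 to Gnai2 (0.40 without irradiated replicate 4), 0.026 to 0.59 for Gnb3 to Gnb1 and 0.41 to 0.74 for Itpr3 to Itpr2. Without untreated replicate 2 and irradiated replicate 4, the fold change was -0.021 for Gnb3 (up to 0.33 without irradiated replicate 1), 0.057 for Rgs13, 0.022 for Gnb1 and -0.22 for Gnas, and the ratios were -0.052 for Gnb3 to Gnb1 and 0.42 for Gnat3 to Gnai2. With the GC correction it was 0.032 for Gnb1, -0.017 for Gnas and 0.10 for Prkar1a, and with limma-voom -0.10 for Gnas. The other cascade genes were, with the GC correction, at 0.26 (Trpm5), 0.25 (Plcb2), 0.24 (Itpr3), 0.23 (Gnat3) and 0.17 (Gnai2). Gnb3 was at 0.097, Gng13 at 0.062, Rgs13 at -0.058 and Itpr2 at -0.22. The median of the 10 was then 0.13, against 0.19 in the main fit. Irradiated and untreated libraries of the same replicate number had correlations of -0.12 to 0.14 over 4 numbers, and 1 of 4 irradiated libraries correlated best with its own number. Whether the numbers mark pairs is not stated by the labels and was not tested further. With the replicate block Gnat3 was at -0.25, and the counts were 91 higher and 22 lower, against 75 and 10 in the same libraries without the block. The ratio differences with the block were 0.44 for Gnb3 to Gnb1, 0.48 for Itpr3 to Itpr2 and -0.71 for Gnat3 to Gnai2. Pde1b, on 2 to 22 counts a library, could be fitted in 14 alternatives.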
